A study of Mus musculus with 12 samples.

Results

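The regulators of mitochondrial biogenesis described here are 10 genes taken by name from a list of this pathway. They are the coactivators Ppargc1a and Ppargc1b, the nuclear factors Nrf1, Gabpa and Esrra, the mitochondrial transcription genes Tfam, Tfb1m, Tfb2m and Polrmt, and the DNA polymerase gene Polg. All 10 were found among the 21671 genes of the deposited expression table. Of the 9745 genes that passed the filter on low values (RPKM, defined below, of 1 or more in 3 or more of the 12 libraries), 9 belong to the list, and Ppargc1a does not.

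The study examined MYC activation together with inhibition of the respiratory chain in FLMycER cells. These derive from the BALB/c mouse line FL5.12, which the paper describes as a B-cell progenitor line. All 4 groups constitutively express MycER, a fusion of MYC with the hormone-binding part of the estrogen receptor that 4-hydroxytamoxifen (OHT) switches on. Total RNA was depleted of ribosomal RNA and sequenced from 3 replicates of each group, 12 libraries in all. The study's methods call the replicates biological and do not say whether they were separate cultures, so the p-values below measure the spread between these samples. Untreated cells received neither agent. The OHT group was kept in 100 nM OHT for 72 hours. The IACS group received 135 nM of IACS-010759, an inhibitor of respiratory complex I, for 24 hours. The OHT_IACS group was OHT-primed and received both agents at these doses, with IACS-010759 present for the last 24 of the 72 hours.

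Mitochondria need proteins from the nuclear genome and from their own small genome (mtDNA), and the regulators listed here couple these sources. Coactivators of the PGC-1 family bind no DNA themselves and dock on nuclear factors such as NRF1, GABP and ERR alpha, which drive nuclear genes for the respiratory chain and for mtDNA upkeep; inside the organelle, the RNA polymerase POLRMT works with TFAM and TFB2M, and polymerase gamma copies the mtDNA. In lymphoid cells MYC is known for driving growth programmes that include genes of mitochondrial biogenesis.

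Levels are given as RPKM (reads in a gene scaled to its length in kilobases and to the size of the library) as deposited by the authors, divided here by a scale factor for each library of 0.974 to 1.03. Differences between groups are on the log2 scale of RPKM plus 0.1, with the standard error (SE), from limma fitted across all 9745 genes. A gene is called changed where the Benjamini-Hochberg adjusted p of that fit is under 0.05. The library totals, worked out from the steps between the deposited values, ran from 10376530 reads in OHT replicate 1 to 14550158 in untreated replicate 2. All OHT_IACS libraries (11792608 to 11913079 reads) were shallower than all untreated ones (13375674 to 14550158), so depth went with group in that comparison. Replicates of a group differed by more than the sampling noise of reads, with a chi-square per gene of 1.07 to 1.66 over the 12 pairs of replicates, where 1 is sampling noise alone. Abundant genes met a ceiling, with the highest gene at 1.59 to 1.80 reads per base of length in each library. Within groups the slope of log reads on the log library total, 1 if proportional, had a median of 1.38 for genes at 0.02 to 0.1 reads per base, 1.21 up to 0.3, 0.80 up to 1 and 0.18 above 1. RPKM of the most abundant genes was thus lower in deeper libraries, and the reason for the ceiling was not tested. The tested members lay below that range, at 0.0306 to 0.245 reads per base, with slopes of 0.87 to 1.52. A slope above 1 goes with a lower RPKM in a shallower library. Members called in OHT_IACS against untreated had slopes of 1.20 (Gabpa), 1.35 (Polrmt), 1.26 (Polg) and 0.98 (Nrf1 and Tfb2m). The part of depth in the members' differences was not tested beyond a fit with the library total as a covariate.

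The label of the cells was checked against marker genes. Of 13 B-lineage markers, 3 reached an RPKM of 1 in at least 3 libraries, namely Cd79a, Cd79b and Ptprc. The defining markers Vpreb2, Pax5, Rag1, Il7r, Dntt and Blnk had no read in any library, and Igll1 and Ebf1 had at most 1 read. Ptprc, a marker of leukocytes in general, was the most abundant, at up to 19.3, and the B-lineage sum ran from 17.1 to 24.0 over the 12 libraries. The erythroid factor genes Gata1, at 26.0 to 32.9, and Klf1, at 4.92 to 13.7, and the myeloid gene Mpo, at 8.65 to 13.7, were present in every library. Most of the markers that define pro-B cells were thus absent, and the cells are called FLMycER below.

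Some markers moved with the treatments. The B-lineage sum was 21.3 to 21.4 in untreated and 21.7 to 24.0 in IACS libraries, above the 18.3 to 19.9 in OHT and 17.1 to 19.3 in OHT_IACS libraries. The sum of the 3 erythroid markers in the table (of 4 listed), with Gata1 the most abundant, was 41.1 to 41.4 in untreated, 42.1 to 44.9 in OHT, 33.8 to 39.7 in IACS and 36.6 to 37.2 in OHT_IACS libraries. The sum of the 7 myeloid markers, with Mpo the most abundant, was 17.5 to 18.2 in untreated, 10.6 to 13.2 in OHT, 14.8 to 18.0 in IACS and 10.1 to 11.2 in OHT_IACS libraries, and Elane had at most 2 reads. The sum of the 3 mast-cell markers, nearly all of it from Cpa3, was 4.81 to 5.33 in untreated, 4.62 to 6.04 in OHT, 8.39 to 8.66 in IACS and 11.7 to 15.1 in OHT_IACS libraries, with Fcer1a at no more than 1 read. T-cell sums stayed between 0.197 and 0.878 and fibroblast sums between 0.0821 and 0.343, with Cd3e and Dcn at 0 reads. Of the 3 tested B-lineage markers, Cd79b was lower in OHT against untreated (-1.10, limma adjusted p 0.000262), where 18.2% of all genes were lower. Cd79b and Ptprc were lower in OHT_IACS against IACS (beside 14.2%) and in OHT_IACS against untreated (20.9%), and in the latter Ptprc (-0.14, adjusted p 0.0331) was not called without untreated replicates 1 or 2 or OHT_IACS replicate 3, with RPKM as deposited or with quantile normalization (0.0283 to 0.139 over the alternatives). The 3 tested myeloid markers, Lyz2, Mpo and Ngp, were all lower in these same comparisons. The list medians, which are the values of Lyz2, were -1.94, -1.51 and -1.58, and with a pseudocount of 1 Lyz2 shrank to -0.99, -0.82 and -0.86. Mpo, which leads the sum, differed by -0.35, -0.31 and -0.51. Ngp had 0 to 35 reads per library, so no single size is given for its differences. In OHT_IACS against OHT it was called lower as well (limma adjusted p 0.00550). Over the alternatives that difference ran from -4.29 to -0.25 and its adjusted p from 0.000104 to 0.279. It was not called with a pseudocount of 1, quantile normalization or only the groups compared. In OHT against untreated Mpo was not called with the library total as a covariate (-0.17, adjusted p 0.211, in a range of 0.00191 to 0.211). Its call in OHT_IACS against IACS (adjusted p 0.0228) was lost without IACS replicates 1 or 2 or OHT_IACS replicates 2 or 3 (0.00580 to 0.0932 over the alternatives). The erythroid markers moved in opposite directions, which their sum hides. Klf1 was lower in each of the 5 comparisons and under each alternative, by 0.50 in OHT against untreated, 0.95 in IACS against untreated, 0.89 in OHT_IACS against OHT, 0.43 in OHT_IACS against IACS and 1.39 in OHT_IACS against untreated. Gata1 (0.23, adjusted p 0.00386) and Hbb-b1 (0.68, adjusted p 0.00879) were higher in OHT against untreated, beside 18.2% of all genes. This difference of Hbb-b1 was 0.39 with a pseudocount of 1, and it was not called by voom (adjusted p 0.0568, in a range of 0.00178 to 0.0568). Hbb-b1, at 6 to 18 reads per library, was also higher in OHT_IACS against untreated (1.18, adjusted p 0.000186) and in IACS against untreated (0.67, adjusted p 0.0210). Over the alternatives these differences ran from 0.72 to 1.30 and from 0.39 to 0.83. The call in IACS against untreated was lost by voom and without untreated replicate 1 or IACS replicates 1 or 3 (adjusted p 0.0110 to 0.112). Its call in OHT_IACS against IACS (0.51, adjusted p 0.0484) was made under 7 of 21 alternatives (0.0265 to 0.204) and lost without untreated replicates 2 or 3, OHT replicate 3, IACS replicates 2 or 3, or any 1 of the OHT_IACS libraries, by voom and with 5 other settings. Cpa3 was higher in each comparison other than OHT against untreated, under each alternative. The part of these shifts in the results below was not tested. In such bulk samples, fewer cells of a type and less RNA per cell cannot be told apart.

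Calls among the 9 tested members are given beside the share of all tested genes called in that direction. OHT against untreated, which asks what OHT does in cells with MycER, gave 2 members higher, Tfam and Tfb2m, where 18.2% of all genes were higher. No library came from OHT-treated cells without MycER, so effects of MycER and of OHT itself cannot be told apart here. IACS against untreated, which asks what complex I inhibition does in nonprimed cells, gave 2 members lower, Tfb2m and Polrmt, where 7.74% of all genes were lower and 8.15% higher. The same inhibition in OHT-primed cells, OHT_IACS against OHT, gave 2 members lower, Gabpa and Tfb2m, beside 11.8%. OHT_IACS against IACS, which asks what OHT does under complex I inhibition, gave 2 members higher, Tfb2m and Polg, beside 12.3%, and 1 lower, Gabpa, beside 14.2%. Both agents against none, OHT_IACS against untreated, gave 2 members higher, Tfb2m and Polg, beside 18.5%, and 3 lower, Nrf1, Gabpa and Polrmt, beside 20.9%. These comparisons share groups of libraries and are not independent. Statements below that groups do not overlap describe the libraries only, since the share of all genes without overlap is not given. With any 1 library left out, the count of members called ran from 1 to 3 in OHT against untreated, 0 to 3 in IACS against untreated, 2 to 4 in OHT_IACS against OHT, 2 to 3 in OHT_IACS against IACS and 2 to 5 in OHT_IACS against untreated. The libraries behind each change are named with the genes below.

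Promoter sequences from RefSeq (build GRCm38.p6) covered 9 of the 10 members, with Ppargc1b missing, and were searched on both strands in the 250 bases before each start. The letters GCGCATGC (a core of NRF1 motifs) matched in Esrra and Polrmt, and 2.26% of all 32851 promoters of that length hold them. The letters CCGGAAG (a core of ETS motifs, the family of GABP) matched in Gabpa, Tfam, Polrmt and Polg, and 6.91% of all promoters hold them. AAGGTCA, the core of ERR motifs, and CACGTG, the E-box bound by MYC, matched in none of the 9, beside 4.08% and 6.02% of all promoters. A match describes letters only and is not a measured site. Polrmt and Tfb2m are shown because they act as partners at mtDNA promoters. Polrmt (chr10:79746605-79746831, minus strand) is the member with both kinds of match, in capitals (GCGCATGC, and CCGGAAG read on the other strand), and Tfb2m (chr1:179546306-179546369, minus strand) has none in its window. Each is trimmed to its longest stretch outside exons of annotated coding transcripts and outside its own RefSeq span, 5′ to 3′.
Polrmt: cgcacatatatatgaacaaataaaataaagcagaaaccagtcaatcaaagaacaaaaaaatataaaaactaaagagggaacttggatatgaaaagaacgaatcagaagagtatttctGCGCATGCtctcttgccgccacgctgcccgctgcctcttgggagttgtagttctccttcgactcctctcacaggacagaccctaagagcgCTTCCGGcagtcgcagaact
Tfb2m: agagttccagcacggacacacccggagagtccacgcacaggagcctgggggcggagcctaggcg

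**Figure D1:**
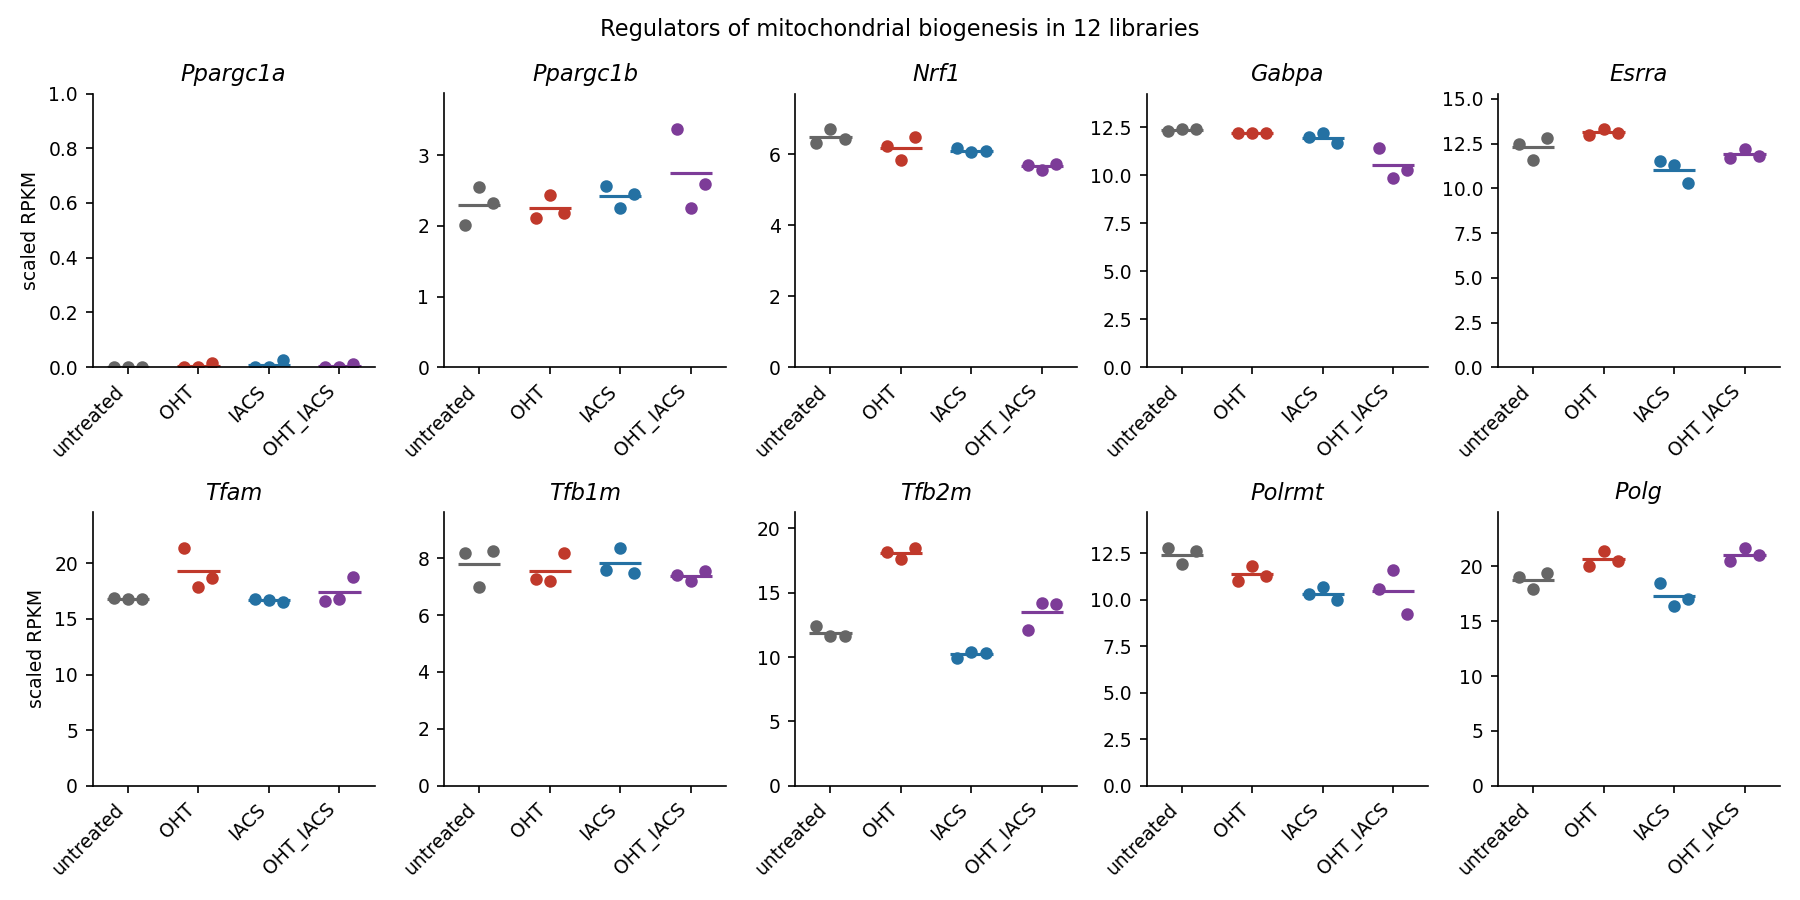
Scaled RPKM of the 10 members in each of the 12 libraries (points) with the mean of each group (line); each panel has its own axis from 0. Tfb2m libraries sit at 17.6 to 18.5 in the OHT group, above the other groups, and Ppargc1a is at or near 0 in each library.

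The coactivator Ppargc1a encodes PGC-1 alpha, the founding member of its family. It had no read in 9 libraries, 1 read in OHT replicate 3, 2 in IACS replicate 3 and 1 in OHT_IACS replicate 3. A floor of 3 reads in a library corresponds to an RPKM of 0.0317 to 0.0445, so each library lay under the floor, and no fold and no test are given. Ppargc1b, which encodes the related PGC-1 beta, was the family member of the list that was expressed, at a low level with 80 to 150 reads per library. Its RPKM was 2.01, 2.55 and 2.33 in untreated, 2.12, 2.44 and 2.19 in OHT, 2.57, 2.25 and 2.45 in IACS, and 3.37, 2.26 and 2.60 in OHT_IACS libraries. OHT_IACS replicate 1 was the highest of the 12 libraries, and the groups overlapped in each comparison. The log2 difference of OHT_IACS from OHT was 0.26 (SE 0.14, 95% confidence interval -0.03 to 0.55, adjusted p 0.180), and Ppargc1b was called in none of the comparisons by limma or, on reads, by voom.

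Nrf1 encodes nuclear respiratory factor 1, which binds promoters of respiratory-chain genes and of genes for mtDNA transcription. Its RPKM was 6.30, 6.70 and 6.43 in untreated, 6.23, 5.82 and 6.49 in OHT, 6.16, 6.06 and 6.08 in IACS, and 5.70, 5.55 and 5.71 in OHT_IACS libraries. All 3 OHT_IACS libraries lay below every library of the other groups. The group means in descending order were 6.48 (SD 0.204, n = 3) in untreated, 6.18 (SD 0.337) in OHT, 6.10 (SD 0.0514) in IACS and 5.66 (SD 0.0886) in OHT_IACS cells, and neighbours among the first 3 differed by less than the larger of their SDs. Nrf1 fell by 0.19 on the log2 scale in OHT_IACS against untreated (SE 0.06, limma adjusted p 0.0148), with 3 of 3 libraries lower. Without untreated replicate 2 the difference was -0.17 with an adjusted p of 0.0659, and over the 22 alternative analyses the adjusted p ran from 0.00450 to 0.0659. Against OHT the difference was -0.13 (adjusted p 0.119), which passed the threshold without OHT replicate 2 (-0.16, adjusted p 0.0426; 0.0426 to 0.341 over the alternatives).

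Gabpa encodes the DNA-binding subunit of GABP, an ETS-family factor also called NRF2. Its RPKM was 12.3, 12.4 and 12.4 in untreated, 12.2, 12.2 and 12.2 in OHT, 11.7 to 12.2 in IACS, and 11.4, 9.86 and 10.3 in OHT_IACS libraries. Untreated, OHT and IACS libraries were nearly level, and the 3 OHT_IACS libraries lay below all of them. The group means were 12.4 (SD 0.0272, n = 3) in untreated, 12.2 (SD 0.0248) in OHT and 10.5 (SD 0.765) in OHT_IACS cells. Gabpa was lower in OHT_IACS than in OHT cells, with a log2 difference of -0.21 (SE 0.05, limma adjusted p 0.00847). In nonprimed cells the same difference was -0.05 (SE 0.05, adjusted p 0.573). Against untreated cells, OHT_IACS cells had a difference of -0.23 (SE 0.05, adjusted p 0.00246). These calls in OHT_IACS against OHT and against untreated were made under each of the 22 alternatives, with log2 differences of -0.27 to -0.17 and -0.29 to -0.19. OHT_IACS against IACS gave -0.19 (SE 0.05, adjusted p 0.0142), and this call was lost without IACS replicate 2 (-0.18, adjusted p 0.0533), OHT_IACS replicate 2 (-0.14, 0.0653) or OHT_IACS replicate 3 (-0.18, 0.0501), over a range of 0.00291 to 0.0653. The span of Gabpa overlaps that of Atp5j in RefSeq; Atp5j differed by 0.04 (adjusted p 0.702) in OHT_IACS against OHT and by 0.13 (adjusted p 0.118) in OHT_IACS against untreated. The latter passed under 5 of 22 alternatives, among them those without OHT replicate 1 (0.13, adjusted p 0.0446) and without OHT replicate 2 (0.13, 0.0279), in a range of 0.0116 to 0.828. Whether reads of such neighbours are counted for a member was not tested.

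Esrra encodes ERR alpha, an orphan nuclear receptor and a partner of PGC-1 coactivators. Its RPKM was 12.5, 11.6 and 12.8 in untreated, 13.0, 13.3 and 13.1 in OHT, 11.5, 11.3 and 10.3 in IACS, and 11.7, 12.2 and 11.8 in OHT_IACS libraries. OHT libraries were the highest and IACS libraries the lowest, and OHT_IACS libraries fell inside the range of the untreated ones; as deposited, before scaling, OHT and IACS libraries each overlapped the untreated ones. No comparison of Esrra passed the threshold by limma, although its unadjusted p was under 0.05 in IACS against untreated and in OHT_IACS against OHT. The difference in IACS against untreated was -0.15 (SE 0.05, adjusted p 0.0687), and without untreated replicate 2 it was -0.19 with an adjusted p of 0.0498 (0.0498 to 0.242 over the alternatives). In OHT_IACS against OHT it was -0.14 (SE 0.05, adjusted p 0.0649), and without IACS replicate 3, a library of neither group that adds to the shared spread, the adjusted p was 0.0372 (0.0372 to 0.160). The span of Esrra overlaps that of Trmt112, a gene at 50.2 to 60.4 RPKM, which differed by -0.02 (adjusted p 0.859) in IACS against untreated and by -0.01 (adjusted p 0.947) in OHT_IACS against OHT, with a slope on the library total of 0.80.

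**Figure D2:**
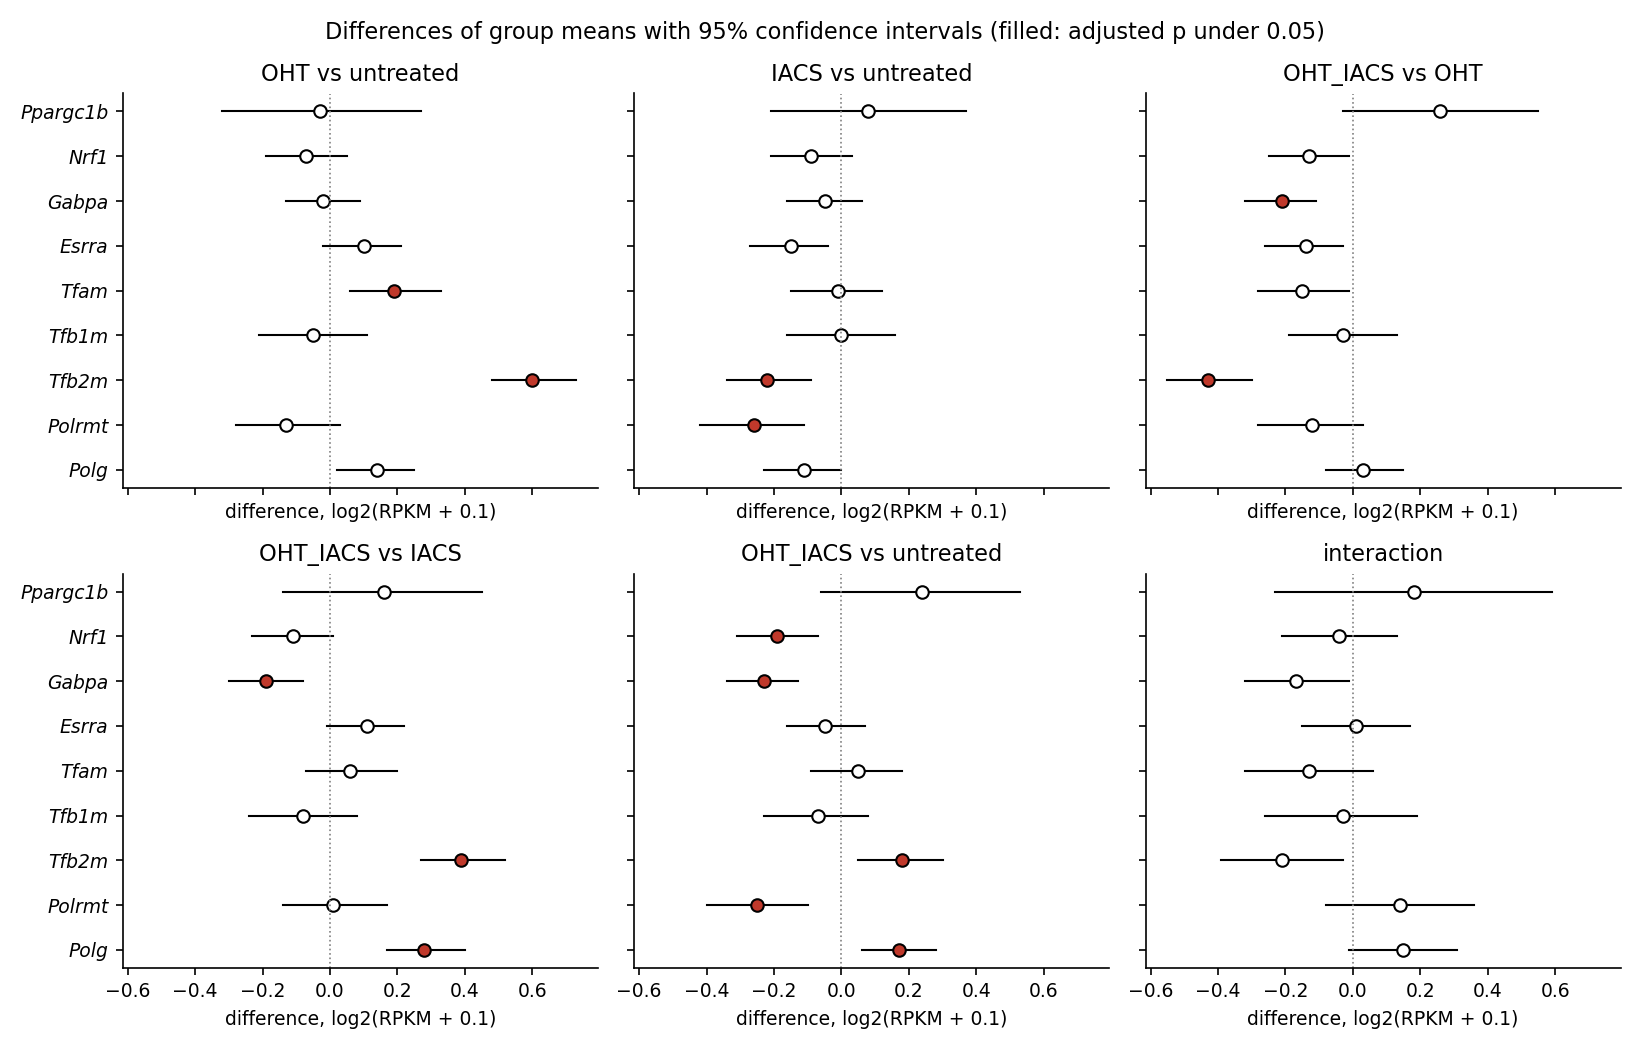
Log2 differences of group means in RPKM plus 0.1 (x axis) with 95% confidence intervals for the 9 tested members in the 5 comparisons and the interaction; filled points have a limma adjusted p under 0.05. Tfb2m is filled in each of the 5 comparisons and no member is filled in the interaction.

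Among the genes that transcribe mtDNA, Tfam encodes the factor that bends promoters of mtDNA and packages the molecule into nucleoids. Its RPKM was 16.9, 16.8 and 16.8 in untreated, 21.4, 17.9 and 18.7 in OHT, 16.8, 16.7 and 16.5 in IACS, and 16.6, 16.8 and 18.8 in OHT_IACS libraries. The OHT libraries lay above the untreated and IACS libraries, with OHT replicate 1 standing apart, and they overlapped the OHT_IACS libraries. Tfam was higher in OHT than in untreated cells by 0.19 (SE 0.06, limma adjusted p 0.0271), in 3 of 3 libraries. That call rested on single libraries: the difference was 0.12 with an adjusted p of 0.102 without OHT replicate 1, and the adjusted p was 0.0611, 0.0680 and 0.0691 without untreated replicate 1, 2 and 3. With the library total as a covariate the difference was 0.12 with an adjusted p of 0.279, the upper end of a range that began at 0.00894. In OHT_IACS against OHT the difference was -0.15 (SE 0.06, adjusted p 0.106), and without OHT replicate 2 it was -0.20 with an adjusted p of 0.0374 (0.0374 to 0.377 over the alternatives).

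Tfb1m encodes a methyltransferase of mitochondrial ribosomal RNA, and Tfb2m encodes its paralogue that melts promoters of mtDNA for POLRMT. The RPKM of Tfb1m ran from 6.99 to 8.37 over the 12 libraries, with 98 to 157 reads, and its groups overlapped in each comparison. Its log2 differences lay between -0.08 and 0.00, with adjusted p from 0.444 to 0.978 in the 5 comparisons. Its span overlaps those of Tiam2, at no more than 0.397 RPKM and not tested, and Cldn20. The RPKM of Tfb2m was 12.4, 11.6 and 11.6 in untreated, 18.2, 17.6 and 18.5 in OHT, 9.92, 10.4 and 10.3 in IACS, and 12.1, 14.2 and 14.1 in OHT_IACS libraries. OHT libraries were the highest and IACS libraries the lowest of the 4 groups, with no overlap between them or with any other group, while OHT_IACS replicate 1 fell inside the untreated range. The group means in ascending order were 10.2 (SD 0.263, n = 3) in IACS, 11.9 (SD 0.477) in untreated, 13.5 (SD 1.16) in OHT_IACS and 18.1 (SD 0.434) in OHT cells. The highest library was 1.86 times the lowest, the widest range among the 9 tested members.

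Tfb2m was higher by 0.60 on the log2 scale in OHT against untreated (SE 0.06, 1.52-fold, limma adjusted p 5.71e-06). With IACS-010759 in both groups, it was higher by 0.39 in OHT_IACS against IACS (SE 0.06, 1.31-fold, adjusted p 0.000311). Complex I inhibition in OHT-primed cells gave a difference of -0.43, OHT_IACS against OHT (SE 0.06, adjusted p 0.000279). These 3 calls of Tfb2m were made under each of the 22 alternatives, with log2 differences of 0.56 to 0.64, 0.35 to 0.47 and -0.47 to -0.35. In nonprimed cells, IACS against untreated gave -0.22 (SE 0.06, adjusted p 0.0245). This call was lost without untreated replicate 1 (-0.18, adjusted p 0.104), IACS replicate 1 (-0.19, 0.0881) or IACS replicate 3 (-0.22, 0.0534), and with RPKM as deposited (-0.19, 0.0682), over a range of 0.00790 to 0.104. OHT_IACS against untreated gave 0.18 (SE 0.06, adjusted p 0.0296) with 2 of 3 libraries above the untreated range. It was lost without untreated replicate 2 (0.16, adjusted p 0.0931), untreated replicate 3 (0.16, 0.0888), OHT_IACS replicate 2 (0.14, 0.114) or OHT_IACS replicate 3 (0.14, 0.117). It was also lost with the library total as a covariate (0.14, 0.170) and with only the groups compared in the fit (0.18, 0.0516), and its adjusted p ran from 0.00270 to 0.170.

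Polrmt encodes the RNA polymerase of mitochondria. Its RPKM was 12.8, 11.9 and 12.6 in untreated, up to 11.8, with a mean of 11.4, in OHT, 10.3, 10.7 and 9.99 in IACS, and 10.6, 11.6 and 9.21 in OHT_IACS libraries. The untreated libraries were the highest of the 12, and the treated groups lay below them, although as deposited OHT and OHT_IACS libraries overlapped the untreated ones. Polrmt was lower in IACS than in untreated cells, with a difference of -0.26 (SE 0.07, limma adjusted p 0.0237). The call was lost without untreated replicate 1 (-0.24, adjusted p 0.0858), untreated replicate 3 (-0.25, 0.0734), IACS replicate 1 (-0.26, 0.0639) or IACS replicate 3 (-0.24, 0.0792). It was lost as well with RPKM as deposited (-0.23, 0.0799) and with the library total as a covariate (-0.23, 0.0701), in a range of 0.00747 to 0.0858. In OHT_IACS against untreated the difference was -0.25 (SE 0.07, adjusted p 0.0134), which became -0.16 with an adjusted p of 0.0615 without OHT_IACS replicate 3 and -0.20 with 0.107 with the covariate (0.00245 to 0.107). OHT against untreated gave -0.13 (SE 0.07, adjusted p 0.176) and OHT_IACS against IACS 0.01 (SE 0.07, adjusted p 0.925, with differences of -0.07 to 0.10 over the alternatives).

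Polg encodes the catalytic subunit of polymerase gamma, which replicates and repairs mtDNA. Its RPKM was 17.9 to 19.4 in untreated, up to 21.4 in OHT, 16.4 to 18.5 in IACS, and 20.5, 21.7 and 21.0 in OHT_IACS libraries. Libraries from cells with OHT, with or without IACS-010759, lay above all libraries from cells without it. The means were 17.3 (SD 1.09, n = 3) in IACS, 18.7 (SD 0.757) in untreated, 20.6 (SD 0.720) in OHT and 21.1 (SD 0.581) in OHT_IACS cells, and the last pair differed by less than their spread. With IACS-010759 in both groups, Polg was higher by 0.28 in OHT_IACS against IACS (SE 0.05, 1.22-fold, limma adjusted p 0.00142), a call made under each of the 22 alternatives with differences of 0.25 to 0.33. Without the inhibitor, OHT against untreated gave 0.14 (SE 0.05, adjusted p 0.0560), which did not pass. It passed without OHT replicate 1 (0.16, adjusted p 0.0493), without IACS replicate 1 (0.14, 0.0421), with genes at an RPKM of at least 5 (0.14, 0.0471) and with voom (0.14, 0.0411), in a range of 0.0411 to 0.204. OHT_IACS against untreated gave 0.17 (SE 0.05, adjusted p 0.0212). That call was lost without untreated replicate 2 (0.14, adjusted p 0.0937), OHT_IACS replicate 2 (0.15, 0.0717) or OHT_IACS replicate 3 (0.17, 0.0511), in a range of 0.0120 to 0.0937. Fanci, whose span overlaps Polg in RefSeq, differed by -0.01 (adjusted p 0.946) in OHT_IACS against IACS.

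**Figure D3:**
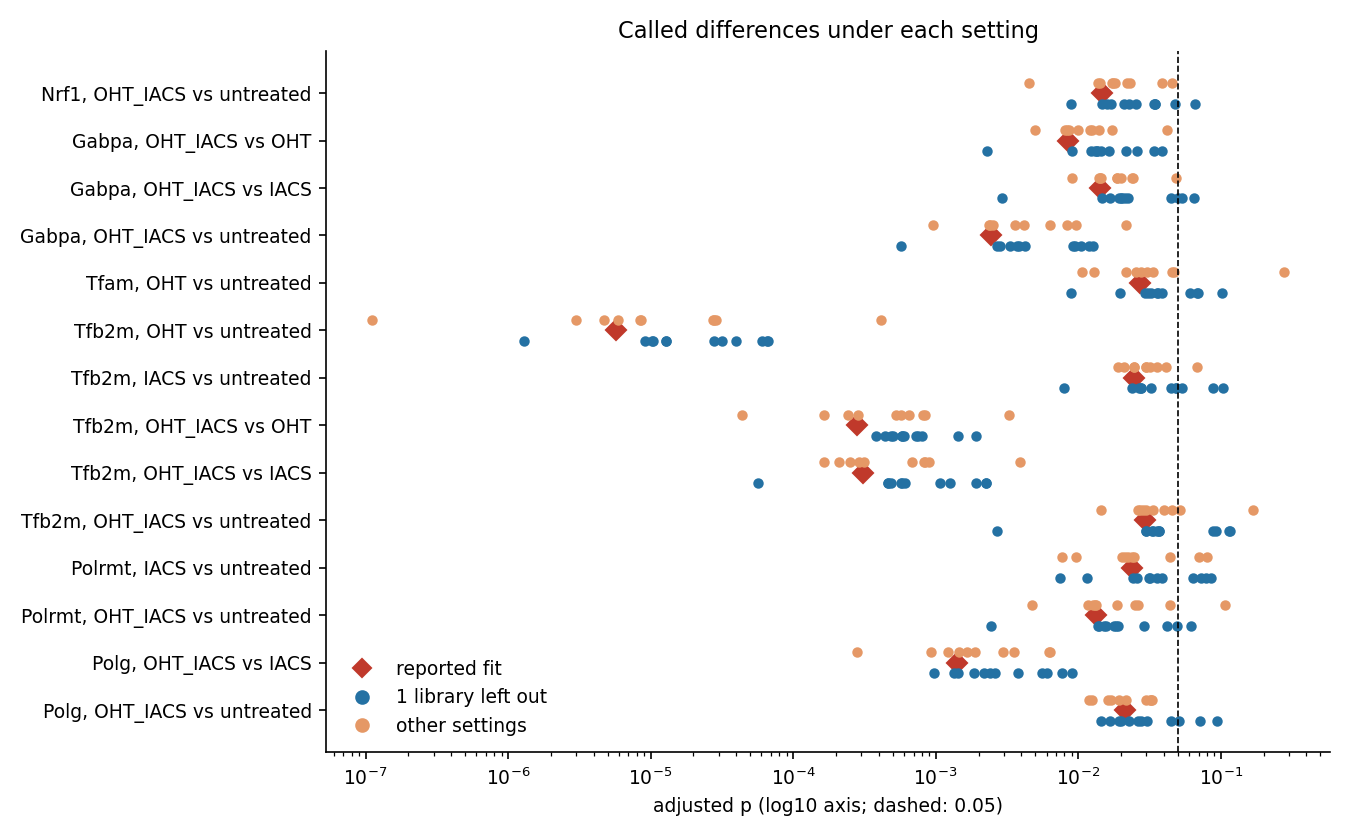
Limma adjusted p (log10 axis) of each called member and comparison in the reported fit (diamonds), with 1 library left out (blue) and under the other settings (orange); the dashed line marks 0.05. The calls of Tfb2m in OHT against untreated, OHT_IACS against OHT and OHT_IACS against IACS stay left of the line in each setting.

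The interaction asks whether the response to IACS-010759 differed between OHT-primed and nonprimed cells. Of all genes, 0.144% had a positive interaction past the threshold, and none of the 9 members was called by limma in either direction. At an unadjusted p under 0.05 there were 2 members, beside 12.7% of all genes, and voom called 0. These were Tfb2m, with an interaction of -0.21 (SE 0.08, p 0.0249 by limma, adjusted p 0.324), and Gabpa, with -0.17 (SE 0.07, p 0.0340 by limma, adjusted p 0.353). The call of Gabpa in primed and not in nonprimed cells is therefore not shown to be a difference between them.

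Genes whose pattern over the 12 libraries was most like each member are given as a description, by Pearson's r of log2(RPKM + 0.1); the libraries fall into 4 groups, which the values of r largely share. For Tfb2m they were Nfe2l2 (r 0.966), Ttpa (0.964) and Agpat5 (0.963). For Gabpa they were Stam2 (0.972), Atf2 (0.940) and Slc19a2 (0.932). Polg had E130309D02Rik (0.944), Dnaaf3 (0.943) and Hs6st1 (0.940), and Polrmt had Lmnb2 (0.934), Snx32 (0.918) and Rab29 (0.902). The nearest to Tfam were Denr (0.959), Taf5l (0.919) and Rab1 (0.918), to Nrf1 Traf7 (0.944) and Umps (0.939), and to Esrra Dnlz (0.951), Ddx28 (0.946) and Ntmt1 (0.939). Ppargc1b had Ell (0.857), Coro7 (0.850) and Ankfy1 (0.831), and Tfb1m, at the lowest values, Rpl26 (0.795), Qtrt1 (0.784) and 5031425F14Rik (0.779). None of the members was among the 3 nearest of another.

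Other genes of the pathway were counted over lists by function, and 43 genes were named by a rule. Of the 102 calls of these 43 genes, 67 were made under each alternative; the calls given below are among the 67 unless a loss is stated. In the list of other coactivators and corepressors, 14 of 16 genes were tested. Complex I inhibition gave 4 genes higher and 1 lower in nonprimed cells and 6 higher and 1 lower in OHT-primed cells, with list medians of 0.11 and 0.23 beside 0.00 and -0.01 over all genes. Of all genes, 8.15% were higher and 7.74% lower in the first of these comparisons, and 11.9% and 11.8% in the second. The higher count in nonprimed cells was 0 without untreated replicate 1 or IACS replicate 3, 1 without untreated replicate 2 or 3 or with no filter, and 2 without IACS replicate 1. In primed cells the higher count was 3 without OHT replicate 1 or OHT_IACS replicate 3, and the lower count was 2 without IACS replicates 2 or 3, with quantile normalization, with the covariate or with only the groups compared. OHT_IACS against untreated gave 8 higher and 2 lower (6 to 9 higher and 1 to 2 lower over the alternatives), beside 18.5% and 20.9% of all genes, with a median of 0.32 beside 0.00. OHT against untreated gave 1 higher (2 without OHT replicate 1, with quantile normalization or by voom), beside 18.2%, the acetyltransferase gene Kat2a, by 0.21 (SE 0.05, limma adjusted p 0.00576), and OHT_IACS against IACS gave 2 higher (4 without OHT replicate 1 or 2, with the covariate or by voom, 5 without IACS replicate 3), beside 12.3%, Kat2a by 0.28 (adjusted p 0.00114) and the coactivator gene Ncoa2 by 0.36 (adjusted p 0.00723), and 1 lower, beside 14.2%, Sirt3, which was not called without IACS replicate 2 (-0.34 in place of -0.42, adjusted p 0.0503, in a range of 0.00146 to 0.0503). Lpin1, which encodes a phosphatase that also acts as a PGC-1 alpha partner, differed by -0.76 in IACS against untreated (SE 0.17, adjusted p 0.00941) and by -0.66 in OHT_IACS against OHT (SE 0.17, adjusted p 0.0145), at 48 to 131 reads per library. These differences of Lpin1 ran from -0.91 to -0.43 and from -0.74 to -0.37 over the alternatives, the smallest of each with a pseudocount of 1, and were called under each. The corepressor gene Ncor1 was higher in OHT_IACS than in OHT cells by 0.37 (SE 0.08, adjusted p 0.00470) and the coactivator gene Ncoa1 by 0.56 (SE 0.10, adjusted p 0.00124). Pprc1, another member of the PGC-1 family, had an RPKM of 12.6, 14.2 and 14.0 in untreated and 16.6 to 17.6 in OHT_IACS libraries, without overlap, and differed between them by 0.33 (SE 0.07, adjusted p 0.00262).

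Of 20 nuclear factors and partners, 14 were tested. OHT against untreated gave 3 higher (2 to 4 over the alternatives), beside 18.2% of all genes, among them the thyroid hormone receptor gene Thra, by 0.37 (SE 0.06, limma adjusted p 0.000496), and Nfe2l2, which encodes the stress factor NRF2 of another family, by 0.32 (SE 0.04, adjusted p 7.38e-05). Nfe2l2 had an RPKM of 15.9, 15.9 and 15.5 in untreated, 18.8 to 20.4 in OHT, 14.0, 14.4 and 14.0 in IACS, and 17.2, 16.8 and 17.2 in OHT_IACS libraries. Its groups did not overlap and kept the order seen for Tfb2m, with IACS lowest and OHT highest, and its difference in OHT_IACS against OHT was -0.21 (SE 0.04, adjusted p 0.00387). Gabpb1, which encodes the partner subunit of GABPA, went the other way from Gabpa. Its RPKM was 3.88, 3.87 and 3.69 in OHT and 4.63, 4.60 and 5.28 in OHT_IACS libraries, without overlap, a difference of 0.33 (SE 0.07, adjusted p 0.00592). Of 8 other genes of mitochondrial transcription, all tested, Mterf1a was called higher in OHT against untreated (0.27, SE 0.10, adjusted p 0.0430) and Mterf2 lower in OHT_IACS against untreated (-0.68, SE 0.19, adjusted p 0.0125), where 18.2% and 20.9% of all genes were called in these directions. The call of Mterf1a was made under 10 of 22 alternatives, and with untreated replicate 3 left out the difference was 0.15 (adjusted p 0.203, in a range of 0.0194 to 0.203). It was also lost without OHT replicates 1, 2 or 3, IACS replicates 1 or 2, or OHT_IACS replicate 2, with differences of 0.25 to 0.28. The call was lost as well with no filter, replicate number as a block, the library total as a covariate, voom and only the groups compared. Mterf2 was lost without OHT_IACS replicate 3 (-0.51, adjusted p 0.0624) and with the library total as a covariate (-0.56, 0.0943), in a range of 0.00143 to 0.0943. Tefm, the elongation factor gene for POLRMT, differed by 0.07 (adjusted p 0.594) in OHT against untreated and by -0.16 (adjusted p 0.275) in OHT_IACS against OHT.

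Replication and maintenance of mtDNA was represented by 26 other genes, of which 25 were tested. OHT against untreated gave 9 higher and 3 lower (7 to 10 higher over the alternatives), and OHT_IACS against IACS gave 9 higher (6 to 9) and 1 lower. Of all genes, 18.2% were higher and 18.2% lower in the first, and 12.3% and 14.2% in the second. The lower counts were 1 without untreated replicate 1, untreated replicate 3 or OHT replicate 3 or with the covariate in the first. In the second the count was 2 without IACS replicate 3, and the single gene, Ogg1, was lost without IACS replicates 1 or 2 or OHT_IACS replicates 1 or 3 (-0.33 to -0.22 in these fits), with no filter, with the covariate and with only the groups compared (adjusted p 0.00772 to 0.165 over the alternatives). The list median was 0.02 and 0.05 in these comparisons, beside 0.01 and -0.00 over all genes. The other comparisons follow, with ranges over the alternatives in brackets. IACS against untreated gave 2 higher (1 to 3) and 2 lower (1 to 5), beside 8.15% and 7.74% of all genes. OHT_IACS against OHT gave 1 higher (0 to 1) and 4 lower (1 to 6), beside 11.9% and 11.8%. OHT_IACS against untreated gave 7 higher (6 to 8) and 5 lower (4 to 8), beside 18.5% and 20.9%. Slc25a33, which encodes a pyrimidine nucleotide carrier of the inner membrane, rose by 0.94 (SE 0.06, limma adjusted p 1.56e-07) in OHT against untreated. Its RPKM was 8.49, 7.75 and 7.73 in untreated and 15.4, 14.4 and 16.6 in OHT libraries, without overlap, and up to 16.8 in OHT_IACS libraries. Top1mt, the gene of the mitochondrial topoisomerase, rose by 0.84 (SE 0.12, adjusted p 0.000101), and Peo1, the table's name for the helicase gene Twnk, by 0.74 (SE 0.05, adjusted p 3.94e-07). Peo1 had an RPKM of 11.9, 13.4 and 12.8 in untreated, 21.2, 21.7 and 20.8 in OHT, 10.7, 11.8 and 10.9 in IACS, and 18.2, 18.1 and 19.4 in OHT_IACS libraries, so that both groups with OHT lay above both groups without it. Ssbp1, which encodes the single-strand binding protein, rose by 0.38 (SE 0.07, adjusted p 0.00114), and the protease gene Lonp1 by 0.28 (SE 0.05, adjusted p 0.000605). The DNA glycosylase gene Ogg1 fell by 0.67 (SE 0.11, adjusted p 0.000309). Polg2, the accessory subunit gene of polymerase gamma, had 38 to 92 reads per library and a difference of 0.38 in OHT against untreated (SE 0.14, adjusted p 0.0503), which passed under 12 of 21 alternatives, among them those without OHT replicate 1, without any 1 of the IACS libraries and without OHT_IACS replicates 1 or 3 (0.0134 to 0.174).

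**Figure D4:**
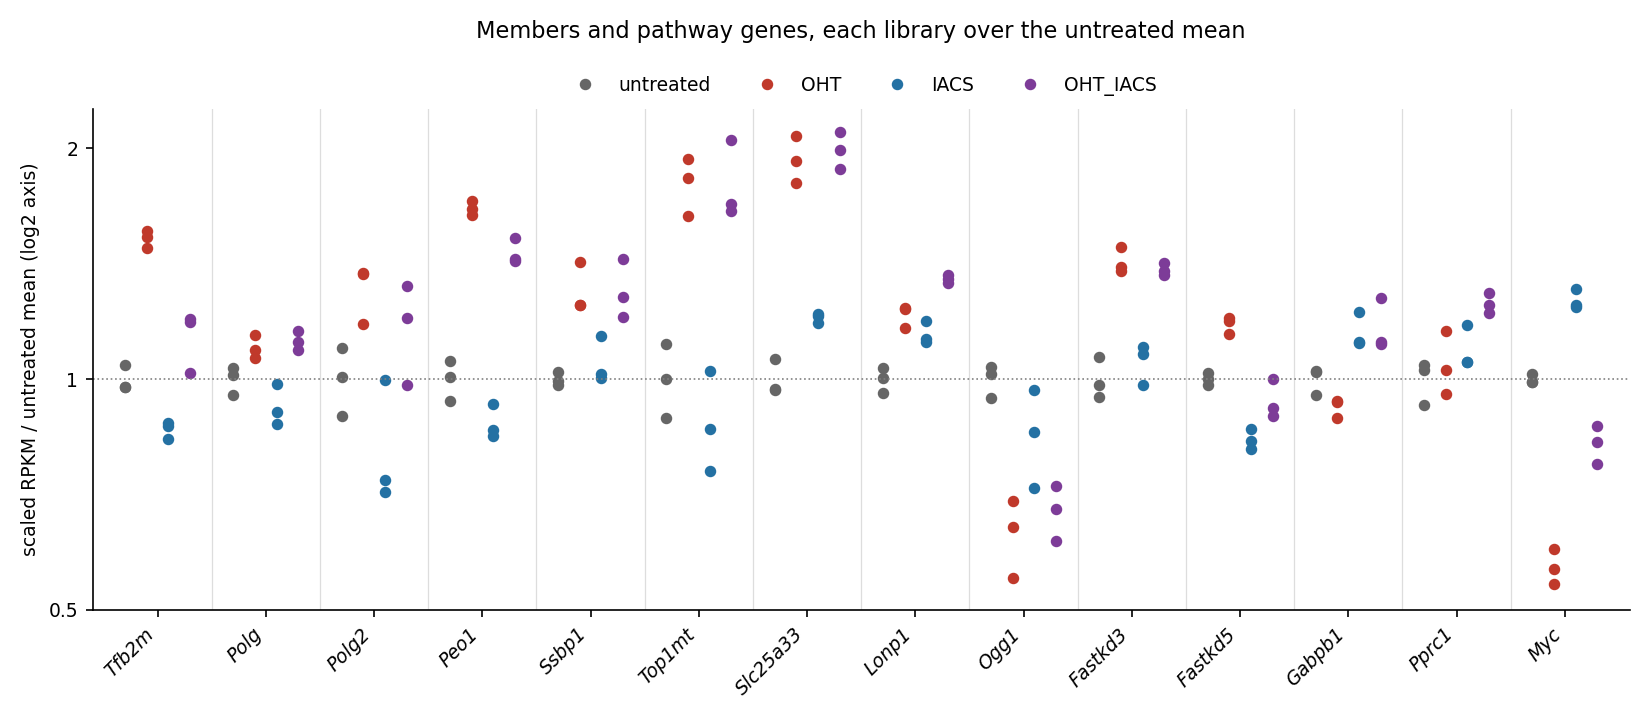
Scaled RPKM of 2 members and 12 other genes in each library, divided by the mean of the untreated libraries (log2 axis). Peo1, Top1mt and Slc25a33 libraries with OHT (red and purple) lie above those without it, and Myc libraries with OHT lie below.

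All 22 genes of the list for processing of mitochondrial RNA were tested, with 10 higher and 2 lower in OHT against untreated (8 to 12 higher and 1 to 3 lower over the alternatives) and a list median of 0.18, beside 18.2% of all genes in each direction and a median of 0.01. Fastkd3, a gene of the FAST kinase family that acts on mitochondrial transcripts, rose by 0.51 (SE 0.06, limma adjusted p 1.89e-05), and its relative Fastkd5 by 0.24 (SE 0.05, adjusted p 0.00239). Fastkd5 was lower in IACS than in untreated cells, with -0.26 (SE 0.05, adjusted p 0.00366), and lower in OHT_IACS than in OHT cells, with -0.33 (SE 0.05, adjusted p 0.000552), the directions seen for Tfb2m. Lrpprc, which encodes a stabiliser of mitochondrial messenger RNA, differed by 0.09 in OHT against untreated (SE 0.05, adjusted p 0.175) and by 0.02 in OHT_IACS against OHT (SE 0.05, adjusted p 0.828). Of 36 known targets of NRF1, GABP and ERR alpha, 35 were in the table and tested. In OHT against untreated 9 were higher and 1 lower, beside 18.2% of all genes in each direction, and the median was 0.16 beside 0.01. Of the 35, 30 lay above 0.3 reads per base, and the median slope of the list on the library total was 0.51. The count of 9 depended on single libraries and on scaling. It was 29 without OHT replicate 2, the deepest OHT library (13956222 reads in place of 10376530 and 10770476), 15 with RPKM as deposited and 5 with only the groups compared. It was 4 with the library total as a covariate and without untreated replicate 2, untreated replicate 3, OHT replicate 1 or OHT replicate 3. For this list an effect of OHT and one of library depth cannot be told apart. Among them, the import gene Tomm34 rose by 0.35 (SE 0.05, adjusted p 0.000107), and the heme synthesis gene Cox10 rose by 0.27 (SE 0.04, adjusted p 0.000120). Both lie below 0.3 reads per base, with slopes of 1.14 and 1.09. The lower target was Acadm, with -0.17 (SE 0.05, adjusted p 0.0192), lost without untreated replicate 2 (-0.13, adjusted p 0.0939) or OHT replicate 3 (-0.16, 0.0615), with RPKM as deposited and with the covariate, in a range of 0.00578 to 0.181. In OHT_IACS against OHT 1 target was lower (6 without OHT replicate 2), beside 11.8% of all genes, again Acadm, with -0.16 (SE 0.05, adjusted p 0.0330), a call lost without any 1 of the 3 OHT or the 3 OHT_IACS libraries (-0.17 to -0.15), with RPKM as deposited, with quantile normalization and by voom (adjusted p 0.0204 to 0.0896 over the alternatives). The direction depended on the alternative, with 7 targets higher and 3 lower with the covariate, 4 higher with quantile normalization and 1 higher without OHT replicate 1. OHT_IACS against IACS gave 2 targets higher (1 to 6 over the alternatives) and 1 lower (1 to 3), beside 12.3% and 14.2% of all genes. The list median was 0.08 there, beside -0.00. OHT_IACS against untreated gave 8 higher (4 to 24) and 1 lower (1 to 5), beside 18.5% and 20.9%. IACS against untreated gave 0 higher (0 to 3) and 0 lower (0 to 2). Cycs, the gene of cytochrome c and a target of NRF1, differed by 0.10 in OHT against untreated (SE 0.09, adjusted p 0.385), with a slope on the library total of 0.35. Without OHT replicate 2 the difference of Cycs was 0.21 (adjusted p 0.0274), and over the alternatives it ran from -0.12 to 0.21 (adjusted p 0.0274 to 0.942). Of the genes encoded by mtDNA, 15 were listed and none of these was in the table. The transcripts that Tfb2m and Polrmt act on were thus not analysed here.

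Myc, the cell's own gene, was read because OHT activates the MycER fusion made from MYC. Its RPKM was 36.3, 36.3 and 37.2 in untreated, 19.8, 22.0 and 20.7 in OHT, 45.4, 45.8 and 48.0 in IACS, and 28.4, 30.3 and 31.8 in OHT_IACS libraries. The 4 groups did not overlap, and their order was the reverse of that of Tfb2m. The log2 difference of Myc was -0.81 in OHT against untreated (SE 0.05, limma adjusted p 1.74e-07), 0.34 in IACS against untreated (SE 0.05, adjusted p 0.000991) and 0.53 in OHT_IACS against OHT (SE 0.05, adjusted p 2.40e-05). Reads from the transgene may be included in these values, which was not tested. After a shorter OHT treatment, the paper reports lower endogenous Myc mRNA by RT-PCR and lower endogenous protein by immunoblot.

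With 3 libraries per group, 8 of the 14 calls of members were lost when some single library was left out. RNA levels alone were measured, and neither the proteins nor the mtDNA content of the cells is in these data.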

How the data were processed

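RNA was measured by sequencing of ribosomal RNA-depleted, stranded libraries from 12 samples. Per the submitters' notes, the authors aligned reads to build mm9 with TopHat2 2.0.8, counted them with featureCounts 1.4.5-p1 and used SAMtools and DESeq2; whether counting was stranded is not given. The table holds RPKM values as deposited by the authors, and their DESeq2 fold changes and adjusted p for 3 comparisons, which were not used. Library totals and reads per gene were worked out from the steps between RPKM values, so floors and read numbers cover counting error only.

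RPKM was divided by a median-ratio factor per library, and genes with a value of at least 1 in 3 libraries were kept. limma 3.58.1 in R 4.3.3 (trend on, 8 residual degrees of freedom) fitted log2(RPKM + 0.1) by group, and p was adjusted by the Benjamini-Hochberg method over all kept genes in each of 6 comparisons, the interaction among them. Python 3.11.15 with numpy 2.4.6, pandas 2.3.3 and matplotlib 3.10.9 did the rest.

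Members and lists were chosen with earlier results of these data known. Genes named beside the members are key partners, genes overlapping a member, up to 2 called genes with the largest rise and 2 with the largest fall in each list and comparison, Myc, and the 3 nearest patterns of each tested member. Alternatives were pseudocounts of 0.01 and 1, no filter, a filter at 5, RPKM as deposited, quantile normalization, replicate number as a block, library total as a covariate, voom on reads, only the groups compared, and each library left out. Promoters are from RefSeq. Values of some genes that these rules name are not reported here.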

Additional observations from a re-analysis of the deposited data

How the results depend on the processing

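Of 1173 values of the members under an alternative, 1135 kept their side of the threshold, 30 lost a call and 8 gained one. No value called in the reported limma fit changed sign; among values not called, 19 had the other sign at 2 decimals, such as Ppargc1b in OHT against untreated (-0.11 to 0.08). The calls of Tfb2m in OHT against untreated, OHT_IACS against OHT and OHT_IACS against IACS, of Polg in OHT_IACS against IACS, and of Gabpa in OHT_IACS against OHT and against untreated were made under each alternative.

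With the library total as a covariate, 2351 genes passed in OHT against untreated in place of 3546, members called were 1 in OHT against untreated, 1 in IACS against untreated and 3 in OHT_IACS against untreated, and 5 genes passed in the interaction in place of 14. With RPKM as deposited, members called in IACS against untreated were 0 in place of 2, and 5 genes passed in the interaction. The genes called in IACS against untreated were then 867 higher and 469 lower (64.9% higher), beside 794 and 754 (51.3%) after scaling. The interaction gave 7 genes with no filter, 34 with quantile normalization (29 higher and 5 lower), 7 with the replicate block and 25 with voom. The cause of these shifts was not tested.

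With 1 library left out, genes called ran from 2650 to 4123 in OHT against untreated, 951 (without untreated replicate 1) to 1809 in IACS against untreated, 1524 (without OHT_IACS replicate 3) to 2951 in OHT_IACS against OHT, 1880 to 2840 in OHT_IACS against IACS, 3028 to 4293 in OHT_IACS against untreated and 3 (without OHT replicate 3) to 130 (without OHT replicate 2) in the interaction. Members called ran from 1 to 3, 0 to 3, 2 to 4, 2 to 3 and 2 to 5 in the first 5 of these, in that order.

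The replicate block left the members called at 2, 2, 2, 3 and 5. Libraries that share a number correlated at -0.17 to 0.1 over 18 pairs, beside -0.18 to 0.17 over 36 other pairs, and 1 of 12 libraries matched its own number best. The reported fit did not pair replicates. With 3 libraries per group, these correlations cannot tell whether libraries of the same number were cultured or processed together.

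Ppargc1b had 80 to 150 reads per library and Tfb1m 98 to 157. Ppargc1a lay under the floor in each library.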
